A study of Homo sapiens with 5 samples.

Results

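The comparison set 1 library of DLD-1 cells that had received siRNA against SNW1 beside 1 control library, intron by intron. DLD-1 is an established human colorectal adenocarcinoma line, and both cultures had the genotype DLD-1 LacZeo and fewer than 10 passages. The siRNA was used at 100 nM for 72 h. The control is labelled as having no treatment, while the file header calls it control RNAi, and the labels do not say whether it received a non-targeting siRNA. The series holds 5 libraries, and the same control library also stands beside a WBP11 RNAi library. Of 24077 introns listed for SNW1 RNAi and the control, 23366 introns in 6965 genes had at least 10 observations (depth inside the intron plus spliced reads) in both libraries and were compared. They were among 34560 introns listed in any table of the series.

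SNW1, also called SKIP, is a component of the spliceosome at the stage in which it becomes catalytically active, and was also described as a transcriptional coregulator of Notch, nuclear receptor and SMAD target genes. When an intron is not removed, it stays in the polyadenylated RNA, and many such RNAs are held in the nucleus or degraded. Intron retention is measured here as the share of transcripts that keep the intron: coverage within it over that coverage plus the reads spliced at its ends.

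There was 1 library per group, so no test between groups was possible and no p-value is given. An intron is called higher or lower when its retention differed by at least 10 percentage points, and "rose" and "fell" are used for such introns. Brackets hold 95% Newcombe intervals of a difference, computed on those observations. These and all other intervals cover counting error at most, since reads are not independent molecules and biological spread was not measured. Depth inside an intron is a coverage signal and not a count, so the intervals of retention are approximate.

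SNW1 itself was the check of the labels. Its measured introns held 401 spliced reads in the control library and 31 after SNW1 RNAi, which is 10.2% of control (95% interval 6.86 to 14.8) after scaling by all spliced reads. Introns 4 and 5 were the only ones of its 13 introns compared. SNW1 intron 5 rose from 0.228% to 13.9% on 14 spliced reads, while intron 4 was at 0% and 5.56%. WBP11, a splicing factor depleted elsewhere in the series, had 1014 and 1500 spliced reads. After the same scaling WBP11 was at 195.7% of control (95% interval 180.6 to 212.2). None of its 5 measured introns was called, with retention between 1.24% and 2.59% after SNW1 RNAi.

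Short introns made up several of the largest changes. The sequences of 4 introns that rose and 1 that fell are shown because each lies whole in an exon of an annotated transcript, so that the retained form is itself an annotated RNA. They are the intron only, 5′ to 3′, from GENCODE release 29 transcripts (GRCh38, the files' build hg38), with the first 6 and last 2 bases in capitals.
ZFAND2B intron 6, chr2:219208349-219208425, plus strand: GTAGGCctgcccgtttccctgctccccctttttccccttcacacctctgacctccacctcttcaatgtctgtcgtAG
APBA3 intron 2, chr19:3759601-3759688, minus strand: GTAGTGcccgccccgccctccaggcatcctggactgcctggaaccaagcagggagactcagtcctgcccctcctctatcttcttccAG
LAMB2 intron 26, chr3:49123374-49123446, minus strand: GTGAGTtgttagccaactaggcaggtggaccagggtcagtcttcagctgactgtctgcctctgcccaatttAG
SGSM3 intron 12, chr22:40407329-40407412, plus strand: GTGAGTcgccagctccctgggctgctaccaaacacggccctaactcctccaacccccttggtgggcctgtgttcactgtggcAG
WDR6 intron 2, chr3:49014117-49014209, plus strand: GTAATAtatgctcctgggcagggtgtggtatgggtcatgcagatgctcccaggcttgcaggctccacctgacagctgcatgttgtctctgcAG

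ZFAND2B encodes a zinc finger protein that binds the proteasome. Its intron 6, 77 bp long with a GC content of 57.1%, had a depth of 14.8 beside 193 spliced reads in the control and 272.4 beside 146 after SNW1 RNAi. Retention rose from 7.13% to 65.1%, by 58.0 points [51.6 to 63.2]. This intron overlaps an annotated exon, so coverage from that exon may enter its depth. APBA3 encodes an adaptor of the Mint family. Retention of its 88 bp intron 2 rose from 7.84% (139 spliced reads) to 62.2% (37 spliced reads), by 54.3 points [43.6 to 63.4]. LAMB2 encodes the laminin beta 2 chain of basement membranes, and its 73 bp intron 26 rose from 13.0% to 66.7%, by 53.7 points [46.1 to 60.5]. Spliced reads at this intron numbered 479 in the control and 64 after SNW1 RNAi. SGSM3 intron 12, 84 bp long, rose from 25.6% to 77.1%, by 51.5 points [44.9 to 57.4]. All 4 introns shown that rose begin with GT and end with AG, as does WDR6 intron 2, which fell from 55.6% to 33.1%, by 22.5 points [-31.2 to -13.1].

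Retention was higher by at least 10 points in 3876 introns (16.6% of those compared) and lower in 84 (0.359%). The higher introns belonged to 1908 genes, of which 1126 had 1 such intron and 161 had 5 or more. The size of the rise was graded: 7516 introns were higher by at least 5 points, 1516 by at least 20, 639 by at least 30, 255 by at least 40 and 87 by at least 50. Median retention over the introns compared was 1.24% in the control and 4.25% after SNW1 RNAi, and the 90th percentile was 8.44% and 23.0%. Introns kept in at least 50% of transcripts numbered 175 in the control and 626 after SNW1 RNAi. For 3216 of the higher introns and 33 of the 84 lower ones the interval excluded 0, so most calls of a fall rested on few observations. Among 10734 introns with at least 100 observations in both libraries, 1304 (12.1%) were higher and 12 lower. Of 1546 introns with 10 to 30 control observations 464 were higher, and of 631 with over 1000 only 49, so the depth of an intron moved with the calls. Every listed intron reached 1% in at least 1 library, so introns under 1% in both are outside these counts and medians. Of those compared, 10274 were under 1% in the control and 484 after SNW1 RNAi, each listed for its value in the other library. Among the 13092 introns at 1% or over in the control, 25.8% were higher and 0.642% lower. Their median retention was 2.98% in the control and 7.77% after SNW1 RNAi.

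**Figure D1:**
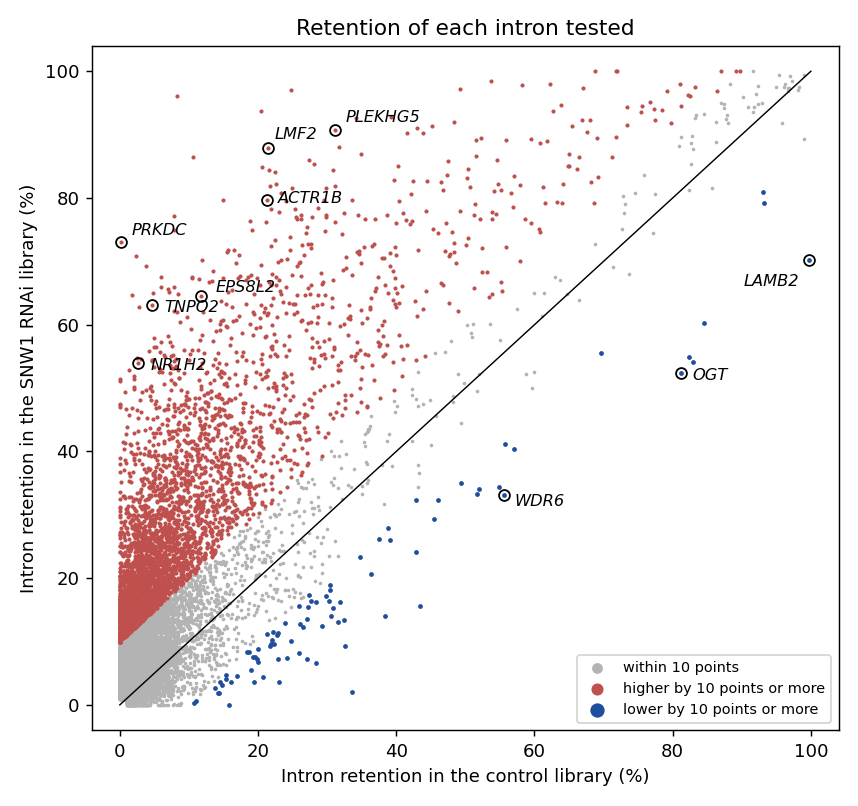
Retention of each of the 23366 introns in the control library (x axis, %) and the SNW1 RNAi library (y axis, %), with equal values on the line; red introns were higher and blue introns lower by at least 10 points. Red points spread up from low control values, with TNPO2 at 4.64% and 63.1% and PLEKHG5 at 31.1% and 90.8%. The lower introns labelled, WDR6, OGT and LAMB2 (intron 1), started above 50%. Of all 84 lower introns 14 started above 50%, and the median control retention of the 84 was 27.3%.

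Among the introns with at least 100 observations in both libraries, the largest rises fell in genes of unlike function. In TNPO2, which encodes the nuclear import receptor transportin 2, intron 16 (chr19:12705600-12705681) rose from 4.64% to 63.1%, with 115 and 64 spliced reads. The last intron of PLEKHG5, number 20 (chr1:6467573-6467824), rose from 31.1% to 90.8% as spliced reads went from 83 to 12. ACTR1B encodes a subunit of dynactin, and its intron 5 rose from 21.3% to 79.7%. ANAPC2 encodes the cullin subunit of the anaphase-promoting complex, and its intron 9, 67 bp long, rose from 11.5% to 67.2%. EPS8L2, related to the actin regulator EPS8, had the deepest of these introns. Its intron 12 had 1789 spliced reads in the control and 304 after SNW1 RNAi, and rose from 11.8% to 64.6% [49.3 to 56.2 points]. It also overlaps an annotated exon. NR1H2 encodes the oxysterol receptor LXR beta. Its intron 3 rose from 2.62% to 54.0%, yet its spliced reads were 150 in the control and 206 after SNW1 RNAi, so there the depth (4.03 and 241.7) made the difference. PRKDC intron 82 and LMF2 intron 1 were the other members of the 12, with rises of 72.9 and 66.6 points. All 12 lie in coding regions, as did 96.5% of the introns compared.

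The largest falls were fewer and smaller. Intron 1 of LAMB2, in the 5′ UTR, fell from 99.7% to 70.2%, in the same gene whose intron 26 rose. This intron begins with GC rather than GT, and it had 1 spliced read, not joined exactly at its ends, in the control and 58 exact ones after SNW1 RNAi. OGT encodes the enzyme that adds O-linked N-acetylglucosamine to proteins, and its intron 4 fell by 28.9 points [-37.9 to -19.6]. ARGLU1 intron 2 and PAXBP1 intron 6 fell from 30.8% to 15.3% and from 55.8% to 41.1%. Intron 1 of RND3, in the 5′ UTR, fell from 27.2% to 13.5% [-21.8 to -4.95 points]. LAMB2 intron 1, OGT intron 4, WDR6 intron 2, ARGLU1 intron 2 and RND3 intron 1 are each kept by an annotated transcript, and PAXBP1 intron 6 is not. Those of LAMB2, WDR6 and RND3 overlap an annotated exon, so its coverage may enter their depth. Just inside the threshold stood introns of CELSR2, ISYNA1, CELSR3 and TCF7, all at 0% in the control and 10.0% after SNW1 RNAi. Each had a depth of 1 beside 9 spliced reads after SNW1 RNAi, and the intervals of CELSR2, ISYNA1 and CELSR3 included 0. Just outside it stood KLHDC3 intron 5 (2.88% and 12.9%), TMEM147 intron 1 (4.58% and 14.6%) and introns of ACYP2, CDAN1 and RSAD1. Neighbours across the threshold thus differ little in the size of the change, but can differ in reads. TMEM147 intron 1 had 604 spliced reads in the control and 563 after SNW1 RNAi.

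Short introns and those beside GC-rich exons were called higher most often. Of 953 introns up to 80 bp, 43.0% were higher, and their median retention was 2.63% in the control and 11.4% after SNW1 RNAi. The share was 20.2% at 81 to 120 bp, 23.6% at over 120 to 500 bp, 11.5% at over 500 to 2000 bp and 3.97% over 2000 bp. The median length was 224 bp for higher introns and 594 bp for introns that were not higher. Length classes also differed in control retention, and the order of the shortest and longest held within it. Among introns at over 5% to 10% in the control, 67.5% of those up to 80 bp and 12.2% of those over 2000 bp were higher. Among introns at over 1% to 5%, the shares were 37.7% and 4.40%.

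GC content was taken from the 50 exon bases on each side of an intron, since intron sequence was on hand for only 3492 of the 23366 introns. From the lowest to the highest quintile of this flanking GC content, 5.03%, 10.6%, 17.8%, 22.0% and 29.4% of introns were higher. The lowest quintile held flanks up to 45% GC and the highest those over 62%. Within introns up to 80 bp the higher introns were 19 of 96 in the lowest quintile and 173 of 346 in the highest. Within introns over 2000 bp it went from 1.99% to 10.7%. The GC content of these flanks, the length of an intron and the gene it lies in are linked, and their separate parts were not tested.

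**Figure D2:**
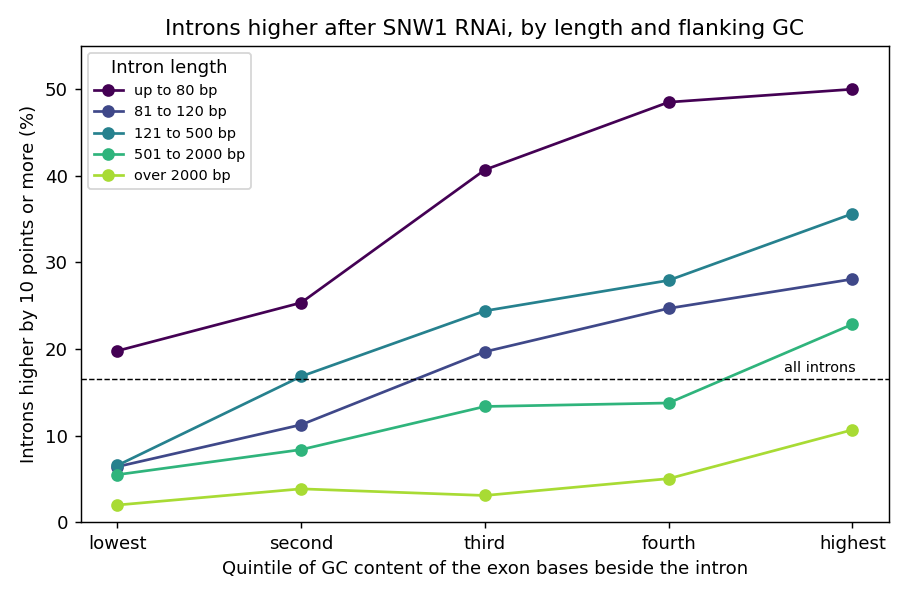
Share of introns higher by at least 10 points after SNW1 RNAi (y axis, %) by quintile of the GC content of the exon bases beside the intron (x axis), with 1 line for each length class and all introns as a dashed line at 16.6%. The highest quintile lies above the lowest in each length class, and introns up to 80 bp lie above all other classes in every quintile.

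In introns with a sequence, splice site letters followed the calls less than the intron's own GC content did. Length was not compared within this set. Among the 3492 introns with a sequence, which are those kept whole by an annotated transcript, 36.9% were higher, against 13.0% of the other introns. Control retention also differed between these sets, at medians of 3.85% and 1.05%. Over 11 bases of the 5′ splice site, 3 exonic and 8 intronic, introns with up to 6 matches to the commonest base at each place were higher in 36.2% of cases and those with 10 or 11 matches in 34.9%. By the share of pyrimidines in the 20 bases before the terminal AG, 37.3% of introns were higher at up to 50% pyrimidines, 43.2% at over 50% to 60%, and 34.2% at over 80%. The intron's own GC content did move with the calls in this set, from 15.2% in the lowest quintile to 48.4% in the highest. Introns that begin with GC and end with AG, a rarer class that the major spliceosome also removes, numbered 27, of which 12 were higher and 1 lower. Among them, RPS6KB2 intron 9 rose by 24.6 points from 8.41%, ACADVL intron 8 from 39.9% to 67.4% and EIF2B1 intron 5 from 12.4% to 42.1%. Of 4 introns with AT and AC ends, a form found among introns of the minor spliceosome, SETD1A intron 14 rose from 3.38% to 23.1%. Those of NAA60 (4.08% and 13.0%), STX10 (0.852% and 7.39%) and ALG3 (higher by 5.17 points) were not called. The only intron with AT and AG ends, USP21 intron 11, rose from 24.5% to 56.1%. The only one with AT at both ends, NOP2 intron 8, was at 3.11% and 4.77%.

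Position in the gene separated the introns less than length did. First introns were higher in 15.6% of cases, internal ones in 17.0%, last ones in 13.8%, and the 90 introns that were the only one of their transcript in 23.3% (21 introns). Introns overlapping an annotated exon were higher in 35.4% of cases, against 15.8% for the rest. Introns that the control already kept were called more often, though not in an unbroken order. The share was 10.2% at a control retention of 0%, 3.67% at over 0% to 1%, 15.6% at over 1% to 5% and 39.2% at over 5% to 10%. It was 57.6% at over 10% to 30%, 65.6% at over 30% to 50% and 50.3% above 50%. Introns under 1% in the control were listed only where they reached 1% after SNW1 RNAi. The shares at 0% and at over 0% to 1% therefore rest on introns chosen by their SNW1 RNAi value. Median control observations in these classes also differed, at 83 and 151.

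Introns of the same gene tended to be called together. In 8551 pairs of neighbouring introns, the downstream one was higher in 44.1% of pairs whose upstream intron was higher and in 14.7% of the others. Yet calls were rarely complete: of 620 genes with at least 8 introns compared, 143 had none higher, 72 had over 50% higher, and THOC6 and LMF2 had every compared intron higher. THOC6 encodes a subunit of the THO complex, which couples transcription to mRNA export. Its 10 introns lay between 1.35% and 12.7% in the control and between 13.6% and 48.0% after SNW1 RNAi. Introns 2 and 3 reached 48.0% and 47.4%, while introns 7 to 9 reached 17.3%, 15.1% and 13.6%. LMF2, a lipase maturation factor, had 8 introns with a median of 2.99% in the control and 21.6% after SNW1 RNAi. Its 68 bp intron 7 and 75 bp intron 8 rose by 41.4 points to 45.3% and by 51.6 points to 54.6%, and its intron 2 from 0% to 10.9%.

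ACADVL encodes the mitochondrial dehydrogenase that begins the oxidation of very long chain fatty acids. It was the most deeply covered of these genes, with 24831 spliced reads in the control and 7807 after SNW1 RNAi, 41.6% of control [40.5 to 42.7]. Of its 16 introns 13 were higher, and the median went from 5.13% to 26.9%. Introns 3 and 4, of 74 and 89 bp and separated by 1 exon, behaved unlike each other: intron 3 rose from 8.57% to 41.2%, while intron 4 was at 0.840% and 2.88%. Intron 16 was likewise low in both libraries, at 0.564% and 2.97%. COL7A1, the collagen of the anchoring fibrils that hold epithelium to the tissue beneath, had 41 of 58 introns higher, the most of any gene, with medians of 2.68% and 21.3%. Its spliced reads were 3227 and 1601, which is 65.6% of control after scaling. Several of its calls rested on few reads, such as intron 66 with 15 spliced reads after SNW1 RNAi and an interval that includes 0. NBEAL2 had 20 of 37 introns higher, DGKQ, a diacylglycerol kinase, 14 of 18, and PCNX3 13 of 21. MAMDC4 had 15 of 22 higher and 1 lower, from a median of 22.2% in the control to 59.2%. IFRD2 had 9 of 10, ABCB6, an ABC transporter, 7 of 8 and ANO9, of the anoctamin family of scramblases and channels, 8 of 10 higher. ABCB6 held only 166 spliced reads in the control and 163 after SNW1 RNAi. Spliced reads in these genes ranged from 30.6% of control in MAMDC4 to 140.6% in PCNX3, so many retained introns occurred with both fewer and more spliced reads.

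**Figure D3:**
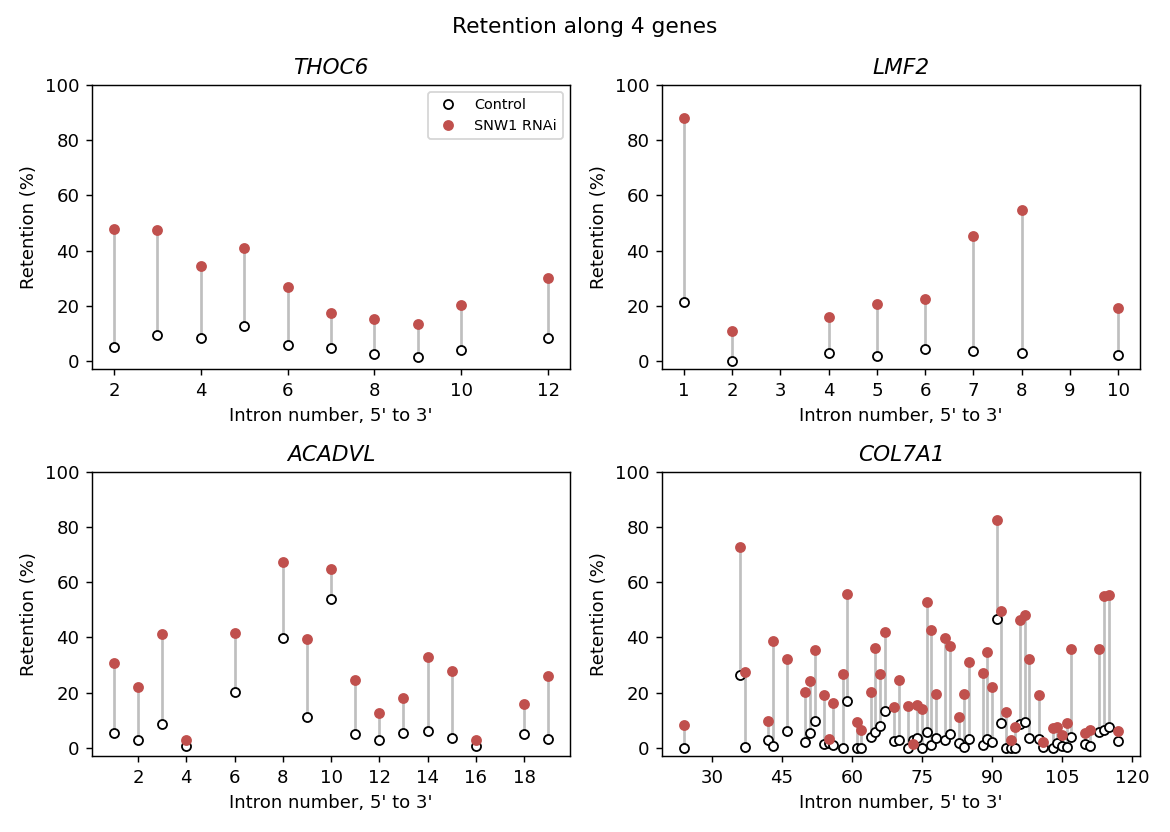
Retention (y axis, %) of each compared intron of THOC6, LMF2, ACADVL and COL7A1 by intron number (x axis), with open circles for the control library and red circles for SNW1 RNAi. All THOC6 and LMF2 introns lie at least 10 points higher after SNW1 RNAi, whereas ACADVL introns 4 and 16 stay under 3%, with ACADVL intron 3 at 41.2%.

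The spliced reads at an intron were compared with those of introns in its gene whose retention was within 5 points of the control, in genes with at least 3 of these. Introns higher by 10 to 20 points kept a median 83.0% of the spliced reads expected from their gene, those higher by 20 to 40 points 67.7%, and those higher by 40 points or more 40.9%. Depth inside the intron, relative to the same reads, was 4.34, 4.15 and 4.81 times the control in these classes and 2.56 times in introns within 5 points. Between the 3 classes of higher introns, depth thus differed little and spliced reads more. Retention is made from both quantities, so this divides the difference and does not support it.

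A separate measure is the exact share, the part of an intron's spliced reads that join precisely its annotated ends rather than 1 end to another site. It was compared in 21257 introns with at least 20 spliced reads in both libraries. The pooled exact share was 99.25% in the control and 98.79% after SNW1 RNAi. It was lower by at least 10 points in 572 introns (2.69%) of 516 genes and higher in 137 (0.644%), with intervals clear of 0 for 471 and 96. Introns that rose in retention had a lower exact share in 207 of 2904 cases (7.13%), and the rest in 365 of 18353 (1.99%). No compared intron was under 75% in both libraries, so introns of mixed splicing throughout are not among those listed.

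NDOR1, a diflavin reductase, had the largest fall among introns with at least 50 spliced reads in both. At its intron 1, 46 of 52 reads were exact in the control and 20 of 70 after SNW1 RNAi, which is 88.5% and 28.6%. BCL2L2 encodes BCL-W, which protects cells from apoptosis, and at its intron 3 the exact reads were 82 of 89 and 20 of 55. KMT5C, a histone H4 lysine methyltransferase, had 50 of 66 exact reads at intron 2 in the control and 21 of 65 after SNW1 RNAi. PABPC4, a cytoplasmic poly(A)-binding protein, had 466 of 530 and 92 of 183 at intron 11, a fall of 37.7 points [-45.3 to -29.9]. At TPRA1 intron 7 the exact share fell from 99.7% to 60.7%, at ANAPC7 intron 1 from 97.6% to 60.7%, at TMEM94 intron 3 from 96.8% to 55.6% and at DMTN intron 4 from 93.1% to 51.9%. Retention also rose at the introns of KMT5C (17.4% to 39.2%), TPRA1, PABPC4 and ANAPC7, but was within 10 points at those of NDOR1, BCL2L2, TMEM94 and DMTN. In the other direction, GABPB1, a subunit of the transcription factor GABP, had 14 of 70 exact reads at intron 5 in the control and 127 of 163 after SNW1 RNAi. The exact share also rose at SETD5 intron 5 (48.6% to 81.3%), YIPF1 intron 2 (45.2% to 76.5%), TRPM2 intron 27 (38.4% to 75.4%) and TCF12 intron 14 (41.3% to 77.6%). Retention was within 10 points of the control at all 5 of these introns.

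**Figure D4:**
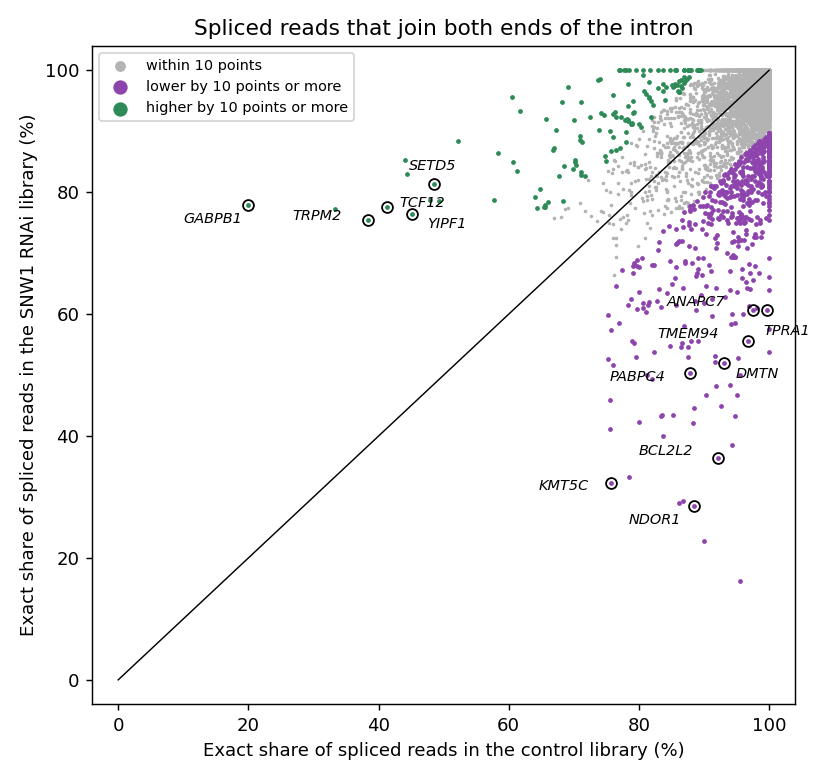
Exact share of spliced reads at 21257 introns in the control library (x axis, %) and the SNW1 RNAi library (y axis, %), with equal values on the line, purple for introns lower and green for introns higher by at least 10 points. The 572 purple introns start from at least 75% in the control and include NDOR1 at 88.5% and 28.6%; the 137 green introns include GABPB1, which reached 77.9%.

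Spliced reads summed over a gene's compared introns give an incomplete measure of its spliced RNA, here scaled by all spliced reads (5513134 in the control, 4166911 after SNW1 RNAi). Of 6661 genes with at least 50 such reads, 608 (9.13%) were at least 2-fold lower and 481 (7.22%) at least 2-fold higher, with a median of 107.1% of control. Scaled by the median gene instead, 722 were lower and 354 higher. Higher retention was called in 33.6% of introns in the lower genes and 7.94% of introns in the higher ones. Spliced reads enter both quantities, so the link is partly built in.

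The 8 largest falls included SNW1. Spliced reads of IGFL1, a secreted growth factor-like protein, were 1453 in the control and 70 after SNW1 RNAi, 6.37% of control (95% interval 4.94 to 8.10). KLK7, a serine protease of epithelia, had 664 and 41 reads and the keratin KRT81 396 and 25. LCN2, a siderophore-binding protein of innate immunity, had 1005 and 87, and the trefoil peptide TFF2 403 and 37. None of the 13 compared introns of IGFL1, KLK7, KRT81, LCN2 and TFF2 was higher in retention. The share higher was 33.6% of introns in all genes at least 2-fold lower and 16.6% of all introns compared. By gene, 72.6% of all compared genes had no intron higher. MFSD3 (792 and 75 reads) had 3 of 4 introns higher, and MYEOV (281 and 21) 1 of 2. Among the rises, the chemokine CCL20 had 27 reads in the control and 274 after SNW1 RNAi, 13.4 times the control [9.03 to 20.7]. SGK1, a serum- and glucocorticoid-regulated kinase, had 147 and 783, and the cytokine IL33 152 and 665. The mucin MUC13 had 165 and 814, ARRDC4, an arrestin-domain protein, 559 and 1765, and the polo-like kinase PLK2 1978 and 5847. GNB1L (44 and 187) and LNX1 (57 and 173) were the others of the 8 largest. SGK1 had 3 of 9 introns lower and 1 higher, all on at most 18 control spliced reads each. At SGK1 intron 5 retention fell from 32.5% to 9.25% [-46.0 to -5.00 points].

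**Figure D5:**
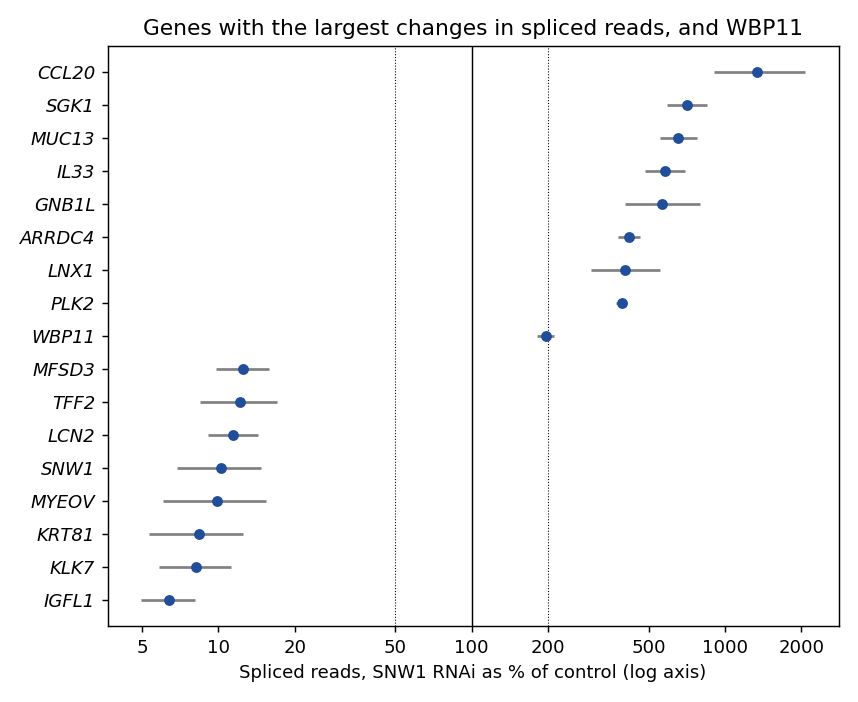
Spliced reads after SNW1 RNAi as a percentage of control (x axis, log scale) for the 8 genes with the largest falls, the 8 with the largest rises and WBP11, with points for the scaled ratio and bars for the exact 95% counting interval. Dotted lines mark 2-fold changes; the falls lie between 6.37% and 12.5% of control and the rises between 391.1% and 1343%.

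The libraries also differed in epithelial keratins. Introns were compared in 9 of 16 listed markers of colon epithelium. None of 35 such introns was higher in retention, against 16.6% of all introns compared. Summed spliced reads of the 9 markers were 289634 in the control and 88035 after SNW1 RNAi, 40.2% of control after scaling by all spliced reads. KRT8 (85509 and 15519 reads), KRT18 (159752 and 52098) and KRT19 (36537 and 15277) carried this difference. Without these 3 keratins the other 6 markers summed to 7836 and 5141, 86.8% of control after scaling. Among the 6, CDH1 was at 49.8%, CDH17 at 63.6%, ELF3 at 78.7%, ESRP2 at 101.4%, GRHL2 at 146.9% and ESRP1 at 175.0%. KRT8 and KRT18 have many processed pseudogenes, so their reads may be shared with copies. EPCAM, KRT20, CDX1, CDX2, VIL1, LGALS4 and GPA33 had no compared intron, and neither had any marker on the lists for fibroblasts, leukocytes or endothelium. In bulk RNA, fewer cells of a type and less RNA per cell cannot be told apart, and the part of this difference in the other results was not tested.

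Gene lists were read against all introns, of which 16.6% were higher with a median difference of 2.63 points. Leaving out the gene with most higher introns lowered the count by over 1.5 times in 12 of 26 lists. Integrins, collagens and laminins, which join cells to the basement membrane, had the largest share, 76 of 247 introns (30.8%) in 9 of 21 genes, with a median difference of 4.67 points. COL7A1 alone held 41 of these, and without it the list had 35 of 189 (18.5%), so its place rests on that gene. The median gene of the list had 68.9% of control spliced reads. The list's introns had a median length of 195 bp and flanks of 64% GC, against 479 bp and 55% over all introns. Lysosomal enzymes and the V-ATPase had 32 of 113 introns (28.3%) in 13 of 31 genes. In this list ARSA intron 8 rose from 10.9% to 47.5% and IDUA intron 6 from 7.10% to 38.9%, in genes for enzymes that break down sulfatide and glycosaminoglycans.

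The pathways of which SNW1 was described as a coregulator stood near or below the background. Notch pathway genes and RBPJ cofactors had 14 of 102 introns higher (13.7%), TGF-beta and SMAD genes 9 of 58 (15.5%) with 2 lower, and nuclear receptors and coactivators 7 of 66 (10.6%). RFNG, a glycosyltransferase that modifies Notch, rose at intron 4 from 34.5% to 77.4%. KAT2A, an acetyltransferase, rose at intron 13 from 7.16% to 34.0%. LTBP3, a binding protein of latent TGF-beta, rose at intron 2 from 31.2% to 81.9% [23.6 to 66.7 points], on 3 spliced reads after SNW1 RNAi. At LTBP3 intron 8 retention fell from 69.6% to 55.6%, with an interval that includes 0. NR1H3, which encodes LXR alpha, rose at intron 5 from 7.83% to 47.5%, beside the rise in NR1H2 given above. Without NR1H3 the nuclear receptor list had 3 of 61 introns higher, without LTBP3 the TGF-beta list 5 of 43, and without JAG2 the Notch list 9 of 90. Wnt pathway genes, active in this tumour type, had 17 of 91 introns higher (18.7%), with DVL1 intron 4 from 12.4% to 45.3% and DVL3 intron 5 from 23.8% to 48.9%.

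Genes of RNA processing differed among themselves. Tri-snRNP and catalytic step factors, the spliceosome's own late-acting proteins, had 3 of 106 introns higher (2.83%), in CD2BP2 and PPIL2. Their median spliced reads were 189.0% of control, against 107.1% over all genes, and 8 of 21 genes were at least 2-fold higher, against 7.22% of all genes. The minor spliceosome had 1 of 21 higher (4.76%), CENATAC intron 6, the RNA exosome and nuclear decay 3 of 69 (4.35%) and transcription elongation 9 of 134 (6.72%). EXOSC10, a nuclease of the exosome, rose at intron 15 from 10.1% to 41.4%, and ELL3 at intron 10 from 6.07% to 44.3%. ELL3 held 6 of the 9 elongation introns, CD2BP2 2 of the 3 tri-snRNP introns and EXOSC10 1 of the 3 exosome introns. Exon junction complex and export genes had 17 of 76 higher (22.4%), and THOC6 held 10 of these, which leaves 7 of 66 (10.6%) without it. Genes of 3′ end processing and Integrator had 28 of 142 (19.7%), among them CPSF1 intron 34 (24.2% to 70.3%) and INTS11 intron 6 (14.7% to 60.6%), in genes for subunits of the cleavage and polyadenylation machinery and of Integrator. Without CPSF1 this list had 16 of 115 higher. Nucleoporins and importins had 15 of 172 (8.72%), with AAAS intron 14 from 8.92% to 40.2%.

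DNA repair and chromosome segregation genes were mixed. Mismatch and base excision repair genes had 23 of 108 introns higher (21.3%), and 14 of 95 without the gene that held most of them. MUTYH, the adenine glycosylase of that pathway, rose at intron 6 from 18.9% to 67.9%. Kinetochore and spindle genes had 23 of 177 (13.0%), with CENPT intron 15 from 8.75% to 60.5% and DSN1 intron 2 from 7.31% to 52.3%. Cyclins and cyclin-dependent kinases had 18 of 133 (13.5%), including CDK11A intron 13 (42.0% to 75.9%) and CDK18 intron 8. CDK11A and CDK11B are near-identical copies, so reads may be shared between them.

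Genes of metabolism, transport and autophagy had between 9.80% and 20.4% of introns higher. Glycolysis and the TCA cycle had 10 of 102 introns higher (9.80%) and mitochondrial ribosome and respiratory chain genes 13 of 132 (9.85%). NDUFV1, a subunit of respiratory complex I, rose at intron 3 from 5.64% to 43.7%, and MRPL43 at intron 2 from 2.86% to 28.1%. Cholesterol and fatty acid synthesis had 19 of 125 (15.2%). MVD, of the mevalonate pathway, rose at intron 8 from 14.0% to 59.0% and ACSS2, which makes acetyl-CoA from acetate, at intron 9 from 8.59% to 44.6%. GPI anchor and N-glycan synthesis had 25 of 123 (20.3%), with PGAP6 intron 4 from 2.08% to 50.1% and DPAGT1 intron 4 from 34.3% to 71.6%. Solute carriers had 73 of 373 (19.6%) in 38 genes, led by SLC38A10 intron 13 (11.5% to 53.3%). Autophagy genes had 33 of 162 higher (20.4%) and 1 lower, with TECPR1 rising at intron 3 from 4.25% to 55.9% and falling at intron 11 by 13.2 points to 6.78%, an interval that includes 0.

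Signalling, junction and zinc finger genes had between 14.9% and 19.9% of introns higher. Receptor tyrosine kinase, RAS and MAPK genes had 30 of 202 introns higher (14.9%), including ERBB3 intron 14 (6.13% to 39.3%), in the gene for a receptor of the EGFR family. MAP3K6 held 11 of the 30, which leaves 19 of 182 without it. PI3K and mTOR genes had 35 of 191 (18.3%), with NPRL2, a negative regulator of mTORC1, rising at intron 3 from 22.3% to 58.5%. Junction genes had 14 of 83 (16.9%), or 5 of 70 without LLGL1, with LLGL1 intron 17 from 16.8% to 60.7% and the desmosomal plakophilin PKP3 at intron 2 from 1.89% to 36.7%. ZNF zinc finger genes had 60 of 302 higher (19.9%) in 43 of 156 genes and 1 lower. ZNF276 rose at intron 7 from 18.5% to 67.5%, and ZNF316 fell at intron 4 from 36.3% to 20.7%.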

How the data were processed

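Polyadenylated RNA of 1 control and 1 SNW1 RNAi library was read from 1 table. Per the file headers, it compares IRFinder output made from STAR genome alignments. RSEM and bedtools, and the build hg38, are listed per the submitters' processing notes, without versions. The retention ratio is deposited as a fraction, the intron depth as a coverage signal and the spliced reads (SplicesMax, SplicesExact) as a count per intron, with no scaling between libraries. The deposited ratio differed by over 0.05 from depth over depth plus SplicesMax in 121 introns (SNW1 RNAi) and 20 (control). Coverage from an exon or gene that overlaps an intron can enter its depth. The authors' deposited p-values were not used.

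Median observations per intron were 103.0 after SNW1 RNAi and 120.5 in the control. Introns needed 10 observations in both libraries, which left out 711. Wilson, Newcombe and exact binomial intervals (95%) were computed with Python 3.11.15, statsmodels 0.14.6 and scipy 1.17.1, and the calls were tested on simulated data. Spliced reads per gene were scaled by their total. Intron numbers and flanking bases came from GENCODE release 29, and 19 listed introns had no current symbol. With intron sequence for 3492 of 23366 introns, a check of intron GC content over all introns is void. The control's values were identical in the WBP11 RNAi table at 13412 shared introns.

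Named introns were SNW1 and WBP11, the 12 largest rises and 6 largest falls (1 per gene, at least 100 observations in both), the 6 genes with most introns higher and the 6 with the largest share (at least 8 introns), the largest rises and fall per list, the largest changes of exact share (at least 50 reads) and of spliced reads (at least 200), and 5 introns on each side of the threshold. Some introns that these rules select are not reported here. Introns named beside these (non-GT ends, ACADVL, THOC6, LMF2 and SGK1) were chosen after their values were seen. The comparison, the 26 gene lists and the rules were chosen with earlier results of these data known.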

Additional observations from a re-analysis of the deposited data

How the results depend on the processing

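With 1 library per group, no replicate could be left out. No paired analysis was possible because the labels give no replicate numbers. In place of 3876 introns higher and 84 lower, a depth minimum of 50 gave 2299 and 26, 1 intron per gene 733 and 28, no warning in either library 1600 and 27, a difference of 20 points 1516 and 12, and centring on the median difference 2958 and 143. As a share of the introns left, higher introns were 13.5%, 10.5% and 16.6% under the first 3 of these. The median difference of 2.63 points became 2.69 with no depth minimum, 2.18 at 50, 2.56 without annotated exons, 1.96 with 1 intron per gene, 2.72 with ratios recomputed from depth and SplicesMax, and 4.05 among introns at 1% or over in the control, the last 2 chosen after seeing the data. Exact shares lower in 572 introns and higher in 137 became 283 and 67 at 50 spliced reads and 146 and 34 at 20 points. At 1.5-fold, 1489 genes were higher and 1246 lower in spliced reads, and scaling by the median gene gave 354 and 722 in place of 481 and 608. At 20 points, introns up to 80 bp were higher in 23.5%, over 2000 bp in 0.615%, in the highest GC quintile in 14.1% and in the lowest in 1.09%; at a depth of 50 the last 3 were 2.24%, 24.4% and 3.37%. Of 69 named introns, recomputing with SplicesExact moved LLGL1 intron 17 past its interval, to 59.5 points, and reversed none. At 20 points all 26 lists had fewer introns higher. Without annotated exons the mitochondrial list had 8. Leaving out each list's leading gene, chosen after seeing the data, moved 12 of 26 counts.

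Low depth limits the falls, of which 33 of 84 had intervals below 0. The spread between cultures cannot be told apart from the effect of SNW1 RNAi.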
